A study of Mus musculus with 14 samples.

Results

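In immortalised mouse embryo fibroblasts (iMEF), the megabase of chromosome 7 that holds Usp47, Dkk3, Mical2, Parva, Tead1 and Rassf10 carried 357 of the 122228 sites of acetylated histone H3 lysine 27 (H3K27ac) found in the study. The sites were those on chr7 with a start from 112000000 to below 113000000 (GRCm38). The megabase was chosen by the number of sites it holds, so its density and the short gaps between its sites are described without a test. The sites lay between position 112009799 and position 112902032, a span of 892 kb, and 275 of them (77.0%) were in the bodies of Tead1, Mical2 and Parva. The last site before the megabase, chr7:111987628-111987833, ended 21965 bp before the first site inside it, and the first site beyond it, chr7:113037992-113038451, began 135959 bp after the last site inside.

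The study degraded ASH2L, a core subunit of the complexes that methylate lysine 4 of histone H3, and followed the chromatin over time. All cells were iMEF in which the floxed exon 4 of Ash2l had been deleted by a tamoxifen-inducible Cre recombinase under the CAGG promoter. They lived on human ASH2L with an FKBP tag and an HA tag, delivered by a lentivirus, and the chromatin was taken from a single clone, NG3. H3K27ac was mapped in 12 libraries. Control cells gave 2 of them, and cells exposed for 30 min, 2 h, 4 h, 8 h or 16 h to dTAG, the small molecule that leads the tagged protein to degradation, gave 2 per time. An input library without immunoprecipitation was made from control cells and from cells after 16 h of dTAG. The sites of all libraries formed 1 list of positions, with no value for a library, a replicate or a time point. A site may therefore come from any of the 6 conditions, no change over time can be read from it, and the read depth behind a site was unknown. At the starts of 10 fibroblast marker genes, 7 had a site whose middle lay within 1 kb, including Col1a2, Pdgfra, Thy1 and Vim, and Col1a1 was added when any base of a site was counted. Fap and Lum had none. Of 16 markers of epithelial, endothelial, blood, pluripotent and muscle cells, 1 (Cdh5) had a site by its middle, and Des was added by any base.

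H3K27ac is deposited by p300 and CBP on nucleosomes at active promoters and enhancers, and the nucleosome-poor centre of such an element is often left as a gap between acetylated stretches. Tead1 encodes a TEAD transcription factor, which binds DNA together with the YAP and TAZ coactivators of the Hippo pathway. Parva encodes alpha-parvin, which links integrin-linked kinase to actin at focal adhesions, and Mical2 encodes a monooxygenase that oxidises actin and favours transcription by the serum response factor SRF. Dkk3 encodes a secreted member of the Dickkopf family, Usp47 a deubiquitinase and Rassf10 a member of the Ras-association domain family.

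The sequences that follow were read from the plus strand of GRCm38. The first pair shows the narrow gaps between sites just upstream of the starts of Dkk3 and Mical2, with CpG dinucleotides in capitals, because in both genes the start lay at the edge of a site.
Dkk3 upstream gap chr7:112159093-112159176: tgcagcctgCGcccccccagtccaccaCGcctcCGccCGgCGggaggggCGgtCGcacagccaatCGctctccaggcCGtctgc
Mical2 upstream gap chr7:112225720-112225855: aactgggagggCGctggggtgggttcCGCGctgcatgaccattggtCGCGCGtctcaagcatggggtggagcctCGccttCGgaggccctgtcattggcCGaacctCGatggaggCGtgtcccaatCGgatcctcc
The Dkk3 window held the whole 84-bp gap, had a GC content of 76.2% and carried 9 CpG dinucleotides. The Mical2 window held 136 of the 146 bases of its gap, up to the base before the start, with a GC content of 65.4% and 12 CpG dinucleotides.

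The next 3 windows are the middle 200 bp of the widest site of the megabase and of the widest sites of Parva and Tead1. They are a selection from the widest sites of all stretches. In these and the following windows capitals mark the letters of 5 motifs searched on both strands. These were TEAD (GGAATG), AP-1 (TGANTCA), RUNX (TGTGGT), ETS (CCGGAA) and the CArG box bound by SRF. The AP-1 and CArG patterns read the same on both strands, and a TEAD match can overlap an ETS match.
Widest site, between Dkk3 and Mical2, chr7:112203565-112203764: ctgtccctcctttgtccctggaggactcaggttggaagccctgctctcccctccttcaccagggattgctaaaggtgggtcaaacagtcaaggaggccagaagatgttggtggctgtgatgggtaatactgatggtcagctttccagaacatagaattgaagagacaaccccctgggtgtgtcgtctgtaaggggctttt
Widest site of Parva, intron 1, chr7:112502977-112503176: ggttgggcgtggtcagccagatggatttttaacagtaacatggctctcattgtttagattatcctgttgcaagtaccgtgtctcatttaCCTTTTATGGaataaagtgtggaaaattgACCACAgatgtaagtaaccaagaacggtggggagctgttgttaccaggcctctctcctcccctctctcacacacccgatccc
Widest site of Tead1, intron 1, chr7:112695707-112695906: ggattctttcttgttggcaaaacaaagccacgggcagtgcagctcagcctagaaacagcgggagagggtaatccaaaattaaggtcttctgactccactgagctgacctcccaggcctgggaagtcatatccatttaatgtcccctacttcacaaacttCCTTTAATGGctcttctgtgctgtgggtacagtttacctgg
The middle of the 6979-bp site had none of the 5 motifs. That of Parva had a CArG box and a RUNX match, and that of Tead1 a CArG box. The middles of the widest sites of the other stretches held none of the 5. These included Dkk3 (6390 bp) and Mical2 (5244 bp). In all, 1.40% of the megabase's sites (5 sites) had a CArG box in the middle 200 bp, compared to 0.927% of all sites.

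Of the 357 sites, 5 had more than 1 TEAD match in the middle 200 bp, and the 4 windows outside UTRs are shown here. They were picked after the matches had been counted. How often such middles occur over the whole list is not given.
Dkk3 intron 4 chr7:112136750-112136949: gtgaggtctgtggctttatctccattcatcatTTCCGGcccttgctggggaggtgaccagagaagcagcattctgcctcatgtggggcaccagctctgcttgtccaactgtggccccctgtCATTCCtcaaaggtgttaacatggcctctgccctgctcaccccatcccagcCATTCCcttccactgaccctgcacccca
Tead1 intron 1, first chr7:112714729-112714928: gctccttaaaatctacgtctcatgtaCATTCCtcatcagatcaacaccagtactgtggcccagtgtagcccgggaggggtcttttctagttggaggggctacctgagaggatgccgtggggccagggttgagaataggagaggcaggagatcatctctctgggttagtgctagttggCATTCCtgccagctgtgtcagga
Tead1 intron 1, second chr7:112731718-112731917: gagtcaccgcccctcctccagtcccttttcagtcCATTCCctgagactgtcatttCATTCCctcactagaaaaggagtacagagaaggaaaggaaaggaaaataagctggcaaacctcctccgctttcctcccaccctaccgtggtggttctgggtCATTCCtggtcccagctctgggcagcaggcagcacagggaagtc
Tead1 intron 2 chr7:112826163-112826362: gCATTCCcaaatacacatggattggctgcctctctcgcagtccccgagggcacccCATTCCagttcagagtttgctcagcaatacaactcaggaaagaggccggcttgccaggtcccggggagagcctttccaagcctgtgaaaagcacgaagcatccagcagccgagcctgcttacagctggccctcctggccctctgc
The second window of Tead1 intron 1 had 3 TEAD matches, which began at bases 35, 56 and 157 of the window. No other site of the megabase had as many in its middle 200 bp, and matches in the rest of the sites were not counted. The window in Dkk3 also had an ETS match. TEAD and AP-1 matches were not found together in the middle of any of the 357 sites. Of all sites, 1.15% (1400 sites) had both there, a share at which few of 357 sites would. Over their whole length, 38 of the 357 sites had both, and the share over all sites at this length is not given. Both motifs occurred in the middle of 2 of the 140 gaps of 200 bp to below 1 kb between neighbouring sites of the megabase. The share over all such gaps of the list is not given. These 2 windows are shown because they hold both.
Gap between sites upstream of Parva chr7:112423526-112423725: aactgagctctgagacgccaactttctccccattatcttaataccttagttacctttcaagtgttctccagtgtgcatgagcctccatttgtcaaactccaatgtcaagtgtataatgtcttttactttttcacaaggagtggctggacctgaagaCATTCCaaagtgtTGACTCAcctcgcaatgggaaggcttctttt
Gap between sites in Tead1 intron 1 chr7:112745574-112745773: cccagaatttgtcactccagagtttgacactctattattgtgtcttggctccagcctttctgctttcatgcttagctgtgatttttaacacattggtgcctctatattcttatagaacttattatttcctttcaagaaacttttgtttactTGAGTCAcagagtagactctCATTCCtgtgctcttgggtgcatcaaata
The TEAD and AP-1 matches began at bases 157 and 170 in the window upstream of Parva and at bases 172 and 152 in the window in Tead1. A match is a description of the letters only.

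The number of sites in the megabase was 9.92 times the median of 36 over 2581 bins of 1 Mb on chromosomes 1 to 19 and X, and its sites covered 26.7% of its bases. By number it ranked 2 of 2581, but 12 or 23 with the bins shifted by 0.5 Mb to lower or higher positions, where they held 243 and 213 sites. The bin of Spred1 and Rasgrp1 on chromosome 2 ranked first with 362 sites, and the bin with the start of Lpp on chromosome 16 ranked 4 with 293 sites. By base pairs in sites it ranked 1, with 267239 bp, followed by a bin of chromosome 19 with 225569 bp. That bin had 157 sites, overlapped 54 coding genes and had 51.0% of its sites within 1 kb of a transcript start. The megabase described here overlapped 6 coding genes and ranked 1164 by their number. The megabase before it had 72 sites and the one after it 63.

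**Figure D1:**
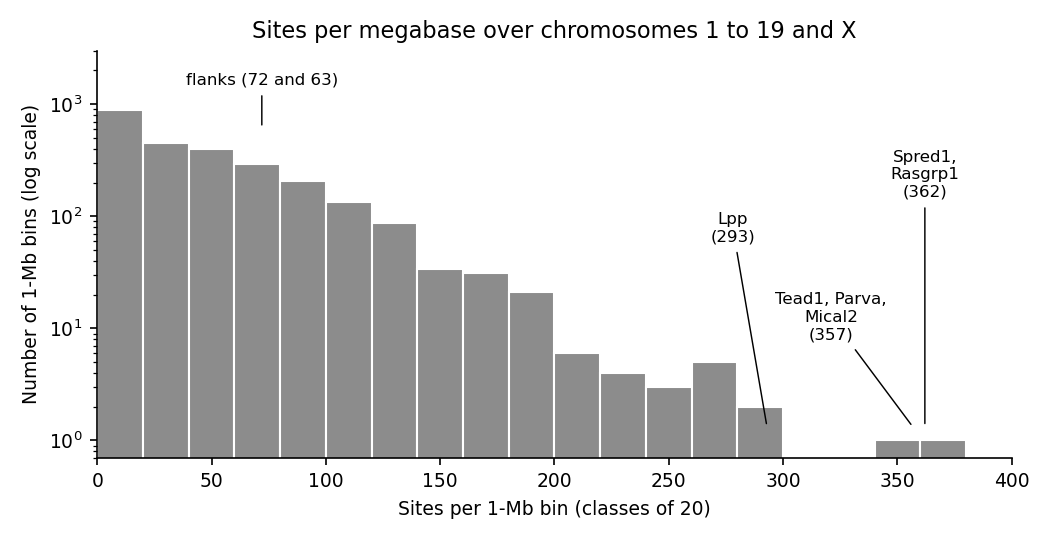
Number of 1-Mb bins (log scale) by the number of H3K27ac sites per bin in classes of 20, over chromosomes 1 to 19 and X. The megabase of Tead1, Parva and Mical2 (357 sites) and that of Spred1 and Rasgrp1 (362 sites) were the only bins with 300 sites or more. The flanking bins (72 and 63 sites) ranked 618 and 755 of 2581, above the median of 36 sites.

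Dense bins differed in where their sites lay. Coding gene bodies held 314 of the 357 sites (88.0%), similar to the 86.0% in the bin of Lpp, where 1 gene had 252 sites. In the bin of Spred1 and Rasgrp1, which overlapped 3 coding genes, 2.21% of the sites were in coding gene bodies. Bodies of coding genes took up 714 kb of the megabase described here.

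**Figure D2:**
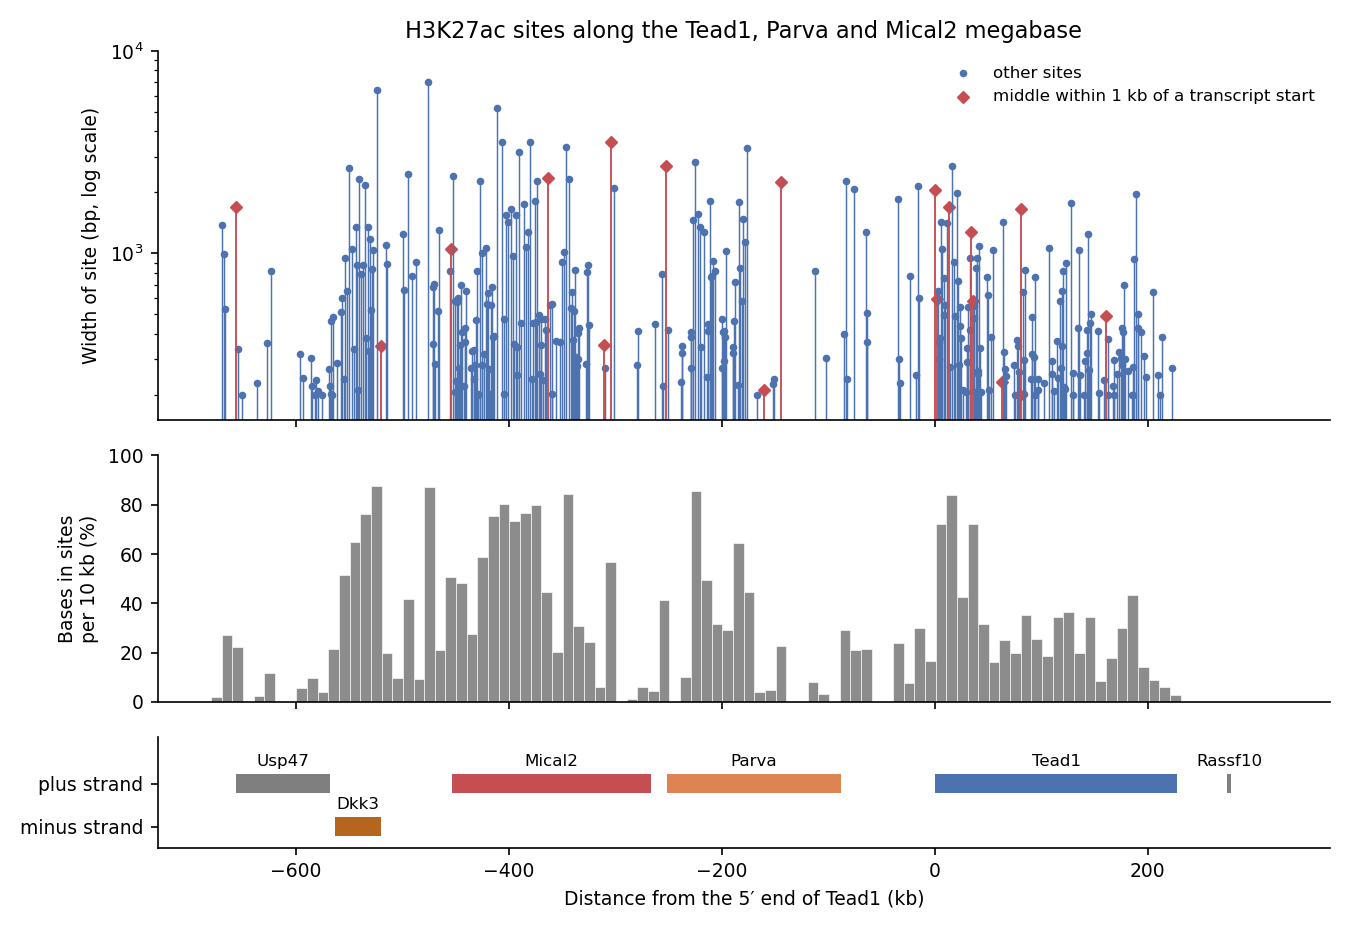
Width of each of the 357 sites (upper panel, bp, log scale), share of bases in sites per 10-kb window (middle panel, %) and bodies of the 6 coding genes by strand (lower panel), against the distance from the 5′ end of Tead1 (kb). Red diamonds are the 18 sites with their middle within 1 kb of a transcript start. Windows with over 50% of their bases in sites were at Dkk3, upstream of and within Mical2, in intron 1 of Parva and at the 5′ end of Tead1, and no site lay in the last 98.0 kb.

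Coverage was uneven along the megabase. Of 100 windows of 10 kb, 19 had no base in a site and 19 had over 50% of their bases in sites, with a highest value of 87.5%. The widest gaps between sites inside the megabase measured 30470 bp in Parva, 27719 bp between Parva and Tead1, and 26672 bp in Usp47. The last 98.0 kb, which includes the 3′ end of Tead1, Rassf10 and a pair of non-coding genes, had 0 sites.

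Tead1 (chr7:112679318-112906807, plus strand) had the highest number of sites of any gene in the megabase. Its 227 kb held 133 sites, which is 58.5 sites per 100 kb, and 31.0% of its bases were in sites. Among 2489 coding genes of at least 100 kb it ranked 16 by sites per 100 kb, and the median of these genes was 4.05. Its sites were narrow, with a median width of 367 bp (quartiles 253 and 644 bp), and 10 of the 16 sites of the megabase with the smallest width in the list, 200 bp, were in Tead1. The widest, chr7:112694460-112697154, measured 2695 bp.

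Introns 1 and 2 of Tead1 held 102 of the 133 sites (76.7%) and made up 70.1% of the gene. Intron 1, of 79.7 kb, had 57 sites and 45.6% of its bases in sites. Intron 2 was of like length, 79.8 kb, and had 45 sites and 27.1% of its bases in sites. The median width was 437 bp in intron 1 and 310 bp in intron 2. Further downstream, intron 5 had 10 sites and 21.2% of its bases in sites, intron 10 had 9 sites and 36.1%, and intron 11 had 4 sites and 8.67%. Coverage was thus higher in intron 1 than in any later intron over 10 kb. The middle of no site lay in introns 4, 8 and 13 of the 13 introns.

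Tead1 had 8 of the 20 clusters of 5 or more sites in the megabase, where neighbours in a cluster were less than 1 kb apart. The largest, chr7:112678356-112704513, began at the promoter and had 23 sites in 26.2 kb, with 78.3% of its bases in sites. A second, chr7:112708293-112722887, had 18 sites in 14.6 kb. In intron 2 a cluster of 6 sites, chr7:112796463-112800294, had a median gap of 118 bp and included the closest neighbours of the megabase, which were 2 bp apart.

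The 13 annotated start positions of Tead1 each had a site within 1 kb. The CpG island (CGI) promoter, a CGI of 1205 bp at chr7:112678887-112680091, lay inside a site of 2065 bp, chr7:112678356-112680420, together with 4 start positions of Tead1 and both starts of the non-coding RNA 2310014F06Rik on the opposite strand. A group of starts within exon 2 of Tead1-201, at 112759384 to 112759546, lay between a 200-bp site, chr7:112758700-112758899, and a site of 1659 bp that began at 112759664. None of these starts was inside a site. The starts at 112691698 and 112742045 were each inside a site, without a CGI within 1 kb. The annotated miRNA gene Gm44462 in intron 1 also had its start inside a site, chr7:112713041-112714319.

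Mical2 (chr7:112225856-112413106, plus strand) had 96 sites in 187 kb, or 51.3 sites per 100 kb. At 44.1%, more of its bases were in sites than in Tead1, and it ranked 30 of the 2489 long genes by sites per 100 kb. By base pairs in sites it ranked 26 of all 21755 coding genes. The sites were wider than those of Tead1, with a median of 466 bp (quartiles 316 and 925 bp), and 12 of the 27 sites over 2 kb were in its body. The widest, chr7:112265586-112270829, measured 5244 bp and lay 186 bp from the next, of 3539 bp, which covers the start of the transcript Mical2-202. The narrowest, chr7:112250369-112250568, measured 200 bp.

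In the longest transcript, Mical2-203, introns 1, 2 and 3 held 57 of the 96 sites (59.4%) in 41.2% of the gene. Intron 3, of 32.0 kb, had 20 sites with a median width of 1175 bp, and 77.1% of its bases were in sites. Intron 2 had 28 sites and 53.7% of its bases in sites. Intron 17, of 14.7 kb, had 12 sites and 67.2%. Over the 3′ part the sites were few, with gaps of 13859, 20244 and 15242 bp, the last of which ran past the end of the gene.

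Mical2 had 5 clusters of 5 or more sites, including the second cluster of 23, chr7:112257822-112291559, which ran over 33.7 kb of introns 2 and 3. Clusters of 14 sites each lay at chr7:112293170-112311337 and chr7:112329285-112345505. The 12-site cluster at chr7:112223759-112235760 contained the CGI promoter. There the start of Mical2-203 at 112225856 lay in the 146-bp gap shown above, with a site of 1051 bp on its upstream side. Only 10 bp separated the start from the next site, of 2411 bp. Of the 11 start positions, 5 were inside a site and 5 had the middle of a site within 1 kb.

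Parva (chr7:112427505-112591692, plus strand) had 46 sites in 164 kb, or 28.0 per 100 kb, with 22.8% of its bases in sites and a median width of 435 bp. Intron 1, of 116 kb, held 44 of them (95.7%) in 70.7% of the gene, and 9 of the other 11 introns of Parva-201 held the middle of no site. Intron 1 had 4 clusters of 7 or 8 sites. The one at chr7:112494210-112504732 ended with the widest site of Parva, of 3312 bp, and had 89.1% of its bases in sites. The narrowest site, chr7:112512721-112512920, measured 200 bp. The CGI promoter of Parva lay inside a site of 2714 bp, chr7:112426000-112428713, whose middle was 148 bp upstream of the nearest start. The antisense gene Parvaos started within intron 1 in a site of 2258 bp, chr7:112534082-112536339, with no CGI within 1 kb. This site was followed by the gap of 30470 bp.

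Dkk3 (chr7:112116017-112159057, minus strand) was the gene with the highest share of its bases in sites, 64.8%, from 24 sites in 43.0 kb (55.8 per 100 kb). Its sites had a median width of 857.5 bp (quartiles 481 and 1221 bp). The range was from 211 bp, chr7:112137500-112137710, to 6390 bp, chr7:112152703-112159092. The latter covered intron 1, part of intron 2 and the start at 112159057, which was 35 bp from its upstream edge. The middle of this site lay 3159 bp inside the gene, so that by its middle it was not a promoter site. A site of 351 bp followed upstream of the 84-bp gap shown above. Intron 4, of 27.3 kb, had 19 sites and 67.3% of its bases in sites. A cluster of 18 sites, chr7:112132040-112159527, ran over 27.5 kb from intron 4 to the promoter with 81.5% of its bases in sites.

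Usp47 (chr7:112023504-112111661, plus strand), next to Dkk3, had a much sparser pattern. Its 88.2 kb held 15 sites, with 5.80% of its bases in sites. The CGI promoter carried the widest, of 1691 bp, chr7:112022770-112024460, and 5 of the 6 start positions were inside it. The median width was 242 bp, and 3 sites had a width of 200 bp. Rassf10 (chr7:112953962-112957457, plus strand) had 0 sites. It had a CGI of 1608 bp at its start, the longest in the megabase, and the nearest site was 51930 bp away.

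**Figure D3:**
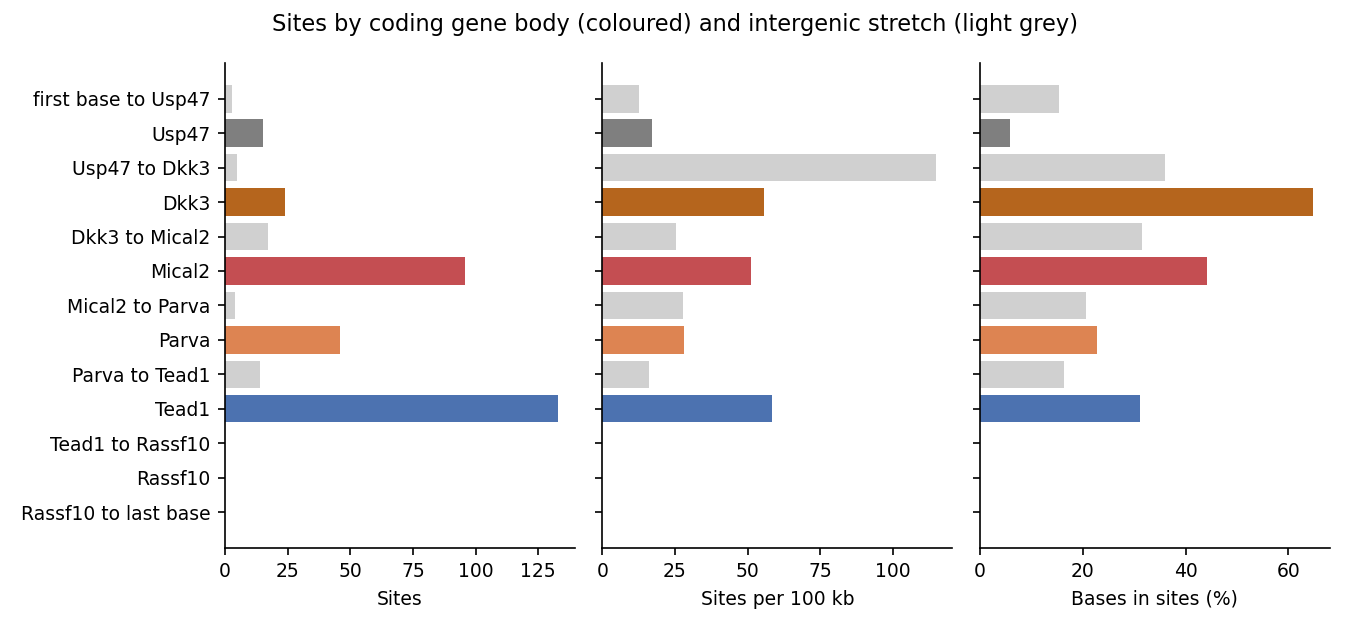
Number of sites (left), sites per 100 kb (middle) and share of bases in sites (right, %) for the bodies of the 6 coding genes and the 7 intergenic stretches, in order along the chromosome. Tead1 had the most sites (133), Dkk3 the highest share of its bases in sites among genes (64.8%), and the last 3 stretches had no site; the tall middle bar of the stretch between Usp47 and Dkk3 rests on 5 sites in 4.36 kb.

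Between the coding genes there were 43 sites. The stretch of 66.8 kb between the starts of Dkk3 and Mical2 had 17, with a median width of 822 bp and 31.6% of its bases in sites. It included the widest site of the megabase, chr7:112200176-112207154, of 6979 bp, whose middle was 22191 bp upstream of Mical2. Together with 4 further sites it formed a cluster of 10.3 kb, chr7:112200176-112210491, with 87.3% of its bases in sites. The stretch of 87.6 kb between Parva and Tead1 had 14 sites, of which 10 were in the non-coding gene 2310014F06Rik. Between Usp47 and Dkk3, 5 sites lay within 4.36 kb and formed a cluster of 6 with the last site of Usp47. The stretch between Mical2 and Parva had 4 sites, including that at the Parva promoter. In the first 23.5 kb there were 3 sites.

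Further properties were then compared with the whole list. The shares near starts and at CGIs are not free of the choice of the megabase. They are divided by the number of sites that chose it, while its starts and CGIs are fixed in number. Shares are given with 95% Wilson intervals, which reflect counting error alone, because sites next to each other share a locus. Within 1 kb of a transcript start lay the middle of 18 sites, 5.04% (3.21% to 7.83%), compared to 18.7% of all sites on chromosomes 1 to 19 and X. Of the rest, 17 were in exons, 292 (81.8%) in introns and 30 (8.40%) in none of these. For these classes the shares over the list are not given. A CGI was overlapped by 5 sites, 1.40% (at most 3.24%), compared to 10.4% of all sites. These 5 were the sites at the CGIs of Usp47, Dkk3, Mical2, Parva and Tead1. By their middles, those of Dkk3 and Mical2 lay over 1 kb from a start and were not among the 18, and the remaining CGI of the 6 in the megabase was that of Rassf10.

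The low promoter share was not particular to the megabase. Among the 1016 bins with at least 50 sites it ranked 939 by this share, and the bins of Lpp (1.71%) and of Spred1 and Rasgrp1 (2.21%) had lower values. By the share of sites at a CGI it ranked 948, and these bins were again lower, with 0.341% and 1.10%. The megabase had 45 transcript start positions of 13 genes. Of these, 32 had the middle of a site within 1 kb and 24 were inside a site. By gene, 5 of 6 coding and 3 of 7 non-coding genes had a start with a site, the exception among coding genes being Rassf10.

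Sites were somewhat wider than in the list. Their median was 431 bp, with quartiles of 279 and 877 bp. In the list these were 401 bp, 265 bp and 723 bp, and the means were 749 bp here and 644 bp in the list. By median width the megabase ranked 434 of 1016 bins, and thus in the middle range. Sites over 2 kb made up 7.56% (5.25% to 10.8%), compared to 4.33% of all sites. Sites of exactly 200 bp made up 4.48% (2.78% to 7.16%), compared to 5.77%. The GC content of the sites averaged 49.7% and that of all sites 49.6%. Repeats took up 16.1% of a site on average, compared to 18.5%.

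The spacing follows in part from the number of sites that chose the megabase. The median gap between neighbours was 375 bp, compared to 1044 bp in the list, and 112 of 356 gaps (31.5%) were under 200 bp, compared to 24487 of 122151 in the list. A neighbour less than 1 kb away was found for 311 sites (87.1%), compared to 72.2% of all sites. The 20 clusters of 5 or more sites held 212 sites (59.4%, compared to 23.4% of all sites), and 8 of them had 10 sites or more. Of the 66 clusters of 20 or more sites in the list, 2 were here. The largest cluster had 23 sites, compared to 46 in the bin of Spred1 and Rasgrp1 and 29 in that of Lpp.

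**Figure D4:**
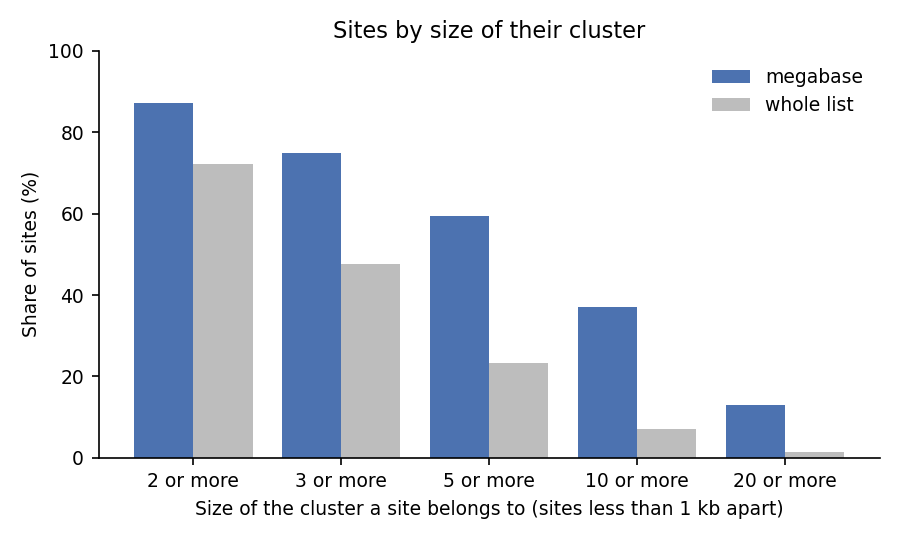
Share of sites (%) that belong to a cluster of at least the given number of sites, with neighbours less than 1 kb apart, for the megabase (blue, 357 sites) and the whole list (grey, 122171 sites). At 5 or more sites the shares were 59.4% and 23.4%, and at 20 or more 12.9% and 1.38%.

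The sequence in the middle of the sites was compared for the same 5 motifs. TEAD letters were in the middle 200 bp of 39 sites, 10.9% (8.09% to 14.6%), compared to 12.3% of all sites and 10.5% of 3356 windows of 200 bp of the megabase outside sites. The interval includes both. By gene, 22 of 133 sites of Tead1 had TEAD letters, 16.5% (11.2% to 23.8%), and 4 of 96 sites of Mical2, 4.17% (1.63% to 10.2%). Parva had 6 of 46, 13.0% (6.12% to 25.7%).

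AP-1 letters, the binding pattern of FOS and JUN dimers, were in the middle of 16 sites, 4.48% (2.78% to 7.16%), compared to 8.10% of all sites. In the windows of the megabase outside sites the share was 5.99% (201 of 3356), which lies inside the interval of the sites. In windows of 400 bp the shares were 14.8% (11.5% to 18.9%) and 16.9%, and in whole sites 20.7% and 21.1%. The lower share was thus seen in the narrowest window, and the intervals of the wider windows included the value of the list. In the flanking megabases the shares were 12.5% of 72 sites and 7.94% of 63 sites. RUNX letters were in 66 sites, 18.5% (14.8% to 22.8%), compared to 15.7% of all sites, and ETS letters in 14 sites, 3.92% (2.35% to 6.47%), compared to 3.68%.

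**Figure D5:**
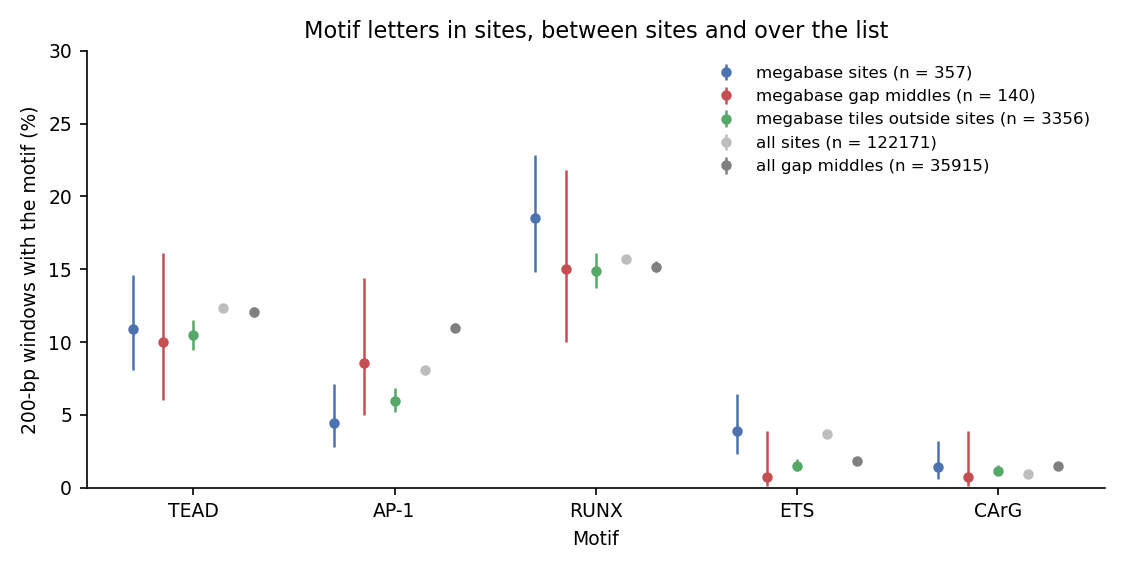
Share of 200-bp windows (%) with the letters of each motif, with 95% Wilson intervals as bars, for the middles of the 357 sites, the middles of 140 gaps of 200 bp to below 1 kb between them, 3356 windows of the megabase outside sites, all sites and all such gaps. AP-1 letters were in 4.48% of the site middles of the megabase and in 8.10% of all site middles. For TEAD, the intervals of the site and gap middles of the megabase included the value of all sites, 12.3%. That of its windows outside sites, 9.47% to 11.5%, lay below it.

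Related genes elsewhere in the genome had fewer sites, except that Rassf9 and Rassf10 both had 0 in their bodies. The megabase was chosen by its number of sites, so the lower counts elsewhere follow in part from that choice. Gene lengths also differed. Of the TEAD family, Tead4 had 12 sites in 76.5 kb, Tead3 had 6 and Tead2 had 1 in 17.9 kb. Tead1 had 133 in 227 kb. All 4 had a site within 1 kb of a start. Tead3, of 19.1 kb, had 69.1% of its bases in sites, more than the 31.0% of Tead1. Of the parvins, Parvb had 5 sites and Parvg had 0. Mical3, which at 199 kb is of similar length as Mical2, had 11 sites and 4.09% of its bases in sites, and the short Mical1 had 2 sites. Of the Dickkopf family, Dkk2 had 10 sites, and Dkk1 and Dkk4 had 0. Rassf9, unlike Rassf10, had a site within 1 kb of its start, and Usp7 had 8 sites in 103 kb, or 7.79 per 100 kb. A gene with 0 sites is one without a listed site, which says nothing of its signal below the threshold of the authors.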

How the data were processed

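Reads had been trimmed by the authors (Trim Galore), aligned to GRCm38 (mm10) using BWA and filtered with SAMtools by ENCODE rules. Picard merged the replicates, and MACS determined narrow peaks (version and threshold not stated). Whether the peaks came from the merged reads was not stated. The authors deposited the sites of all libraries as one list of genome positions in base pairs (chromosome, start, end). On chromosomes 1 to 19 and X no site of the list overlapped another, with a smallest gap of 1 bp. How the peaks of the libraries were joined was not stated, and merging would widen sites.

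Starts were read as counted from 0, since the smallest width is then 200 bp, and are printed counted from 1. Sequence was GRCm38 and annotation GENCODE M21. A site belonged to the gene or numbered intron that held its middle, with introns numbered in the longest complete coding transcripts. The split into exons and introns instead used the exons of every annotated transcript and the bodies of all genes, after sites near a start. Shares of bases counted every base in any site. CGIs were runs of at least 200 bp with a GC content of at least 50% and a CpG ratio of at least 0.6, outside repeats. Clusters had gaps under 1 kb. No test was made, because one list without replicates allows none. Members, gene lists and motifs were chosen with earlier results of these data known. Named genes were all coding genes of the megabase, non-coding genes with a site at a start, and fixed paralogs. Named sites were the widest and narrowest, those at starts and those in clusters of 5 or more. Sequences were a selection of the widest sites, and the remaining windows were picked later. Alternatives varied windows, gaps, widths and bins. The functions were tested on simulated data. Python 3.11.15, numpy 2.4.6, pandas 2.3.3, scipy 1.17.1, numba 0.67.0 and matplotlib 3.10.9 were used.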

Additional observations from a re-analysis of the deposited data

How the results depend on the processing

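No paired analysis was possible because positions carry no value for a library or a replicate. Of 23 alternatives, 11 left a share within its 95% Wilson interval or another value within 1.5-fold, and 12 did not. Merging sites less than 1 kb apart left 105 sites in the megabase, with a median width of 1044 bp compared to 891 bp in the merged list. The rank among 1-Mb bins was 1 by base pairs in sites, and 12 or 23 with shifted bins. The share of sites near a transcript start was 9.80% within 2 kb and 15.4% within 3 kb, compared to 25.3% and 30.5% of the list. The added alternative, with transcripts of complete 5′ end alone, was chosen after seeing the data and gave 5.04% again. The share with a neighbour was 79.6% within 0.5 kb, 92.7% within 2 kb and 97.2% within 5 kb, compared to 60.7%, 78.8% and 85.5% of the list. TEAD letters were in 21.8% of 400-bp windows and 35.0% of whole sites, compared to 23.5% and 30.0% of the list. Wider windows hold more letters by construction. Without the narrowest 25% of the list, 281 sites remained in the megabase and 94 in Tead1. Read depth and signal per site were not analysed here.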

Other observations

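The letters between neighbouring sites were read after the site middles had been examined. In the middle 200 bp of the 140 gaps of 200 bp to below 1 kb within the megabase, AP-1 letters occurred in 12, or 8.57% (4.97% to 14.4%, 95% Wilson interval), compared to 4.48% (2.78% to 7.16%) in the middles of the 357 sites. These intervals overlap. Over the whole list AP-1 letters occurred in 11.0% of 35915 gap middles and 8.10% of site middles. ETS letters occurred in 1 of 140 gap middles, 0.714% (0.126% to 3.93%), and in 3.92% (2.35% to 6.47%) of site middles of the megabase. These intervals overlap too, and the gap value rests on 1 window. Over the list the shares were 1.81% and 3.68%.

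RUNX letters were in the middle of 23 of 96 sites of Mical2, 24.0% (16.5% to 33.4%), compared to 18.0% (12.4% to 25.4%) in Tead1 and 15.7% of all sites. Parva had 10 of 46, 21.7% (12.3% to 35.6%), and the stretch between Parva and Tead1 4 of 14, 28.6% (11.7% to 54.6%). Dkk3 (3 of 24) and Usp47 (2 of 15) were lower, with 12.5% and 13.3%, and the remaining stretches with sites had none. Coding sequence was overlapped by 28 sites of the megabase and an annotated UTR by 19. The shares over the whole list are not given, so these counts are a description only.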
